A study of Mus musculus with 35 samples.

Results

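The 46 cell cycle genes described here were taken from all genes on a mouse whole-genome array by name: a probe counted where its gene name was that of a member. They comprise 30 genes of mitosis, 13 genes of DNA replication and 3 G1 cyclins, out of 18689 genes tested. All 46 had a tested probe, and 60 of their 75 probes passed the filter on dim probes. The classes are compared across the study's 7 groups of samples, with replication and mitosis kept apart.

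RNA came from the suprarenal aorta, the stretch of the abdominal aorta above the renal arteries, of male ApoE-/- mice, which lack apolipoprotein E and develop atherosclerosis. All mice, controls included, carried that deletion, and no mice with intact ApoE enter a comparison. An Alzet osmotic minipump, placed under the skin at 12 to 14 weeks of age, released saline or angiotensin II (Ang II) at 1000 ng/kg/min, a treatment under which such mice form aneurysms in this segment. Infusion lasted 7, 14 or 28 days, and each array held RNA of 1 aorta. The groups were 6 mice on saline for 7 days, 4 on Ang II for 7 days, 3 on Ang II for 7 days labelled as dissected, 6 on saline and 5 on Ang II for 14 days, and 5 on saline and 6 on Ang II for 28 days. The sources used here do not say how dissection was judged. The aorta was labelled with Cy5 and hybridised against Stratagene Universal Mouse Reference RNA, a pool from cultured mouse cell lines, labelled with Cy3. Values are log2 ratios of aorta to reference. A value below 0 means a weaker signal than in the reference, and ratios of different genes are not compared as levels.

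A dividing cell copies its DNA in S phase and separates the copies in mitosis. D- and E-type cyclins act in G1, ahead of replication. Genes of replication are classically switched on by E2F factors near the start of S phase, and genes of mitosis later, in G2, by the MuvB complex with B-Myb and FOXM1. Mitotic genes often carry a CHR element, the cell cycle genes homology region, with CCAAT boxes beside it. The medial smooth muscle of a healthy adult artery divides little. In whole aorta, a change in the number of dividing cells and a change in RNA per cell cannot be told apart.

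Promoter letters separate the replication and mitosis classes before any array value is used. The windows span 250 bases before to 50 bases after each transcription start in RefSeq, build GRCm38.p6. Of the 46 members, 38 had a window and 8 had none in the table. The CHR was searched as TTTGAA or TTCGAA, the CCAAT box as CCAAT, and the E2F site as any of TTCCCGC or else TTCGCGC or else TTGCCGC or else TTGGCGC, all on both strands, with E2F matches allowed to overlap each other. The CHR letters occurred in 19 of 25 mitosis genes (76.0%), 2 of 12 replication genes (16.7%) and 21.7% of all 27025 genes with a window. The E2F letters had the opposite split, with 3 of 25 mitosis genes (12.0%), 9 of 12 replication genes (75.0%) and 10.9% of all genes. CCAAT occurred in 20 of 25 mitosis genes (80.0%), 9 of 12 replication genes (75.0%) and 41.1% of all genes, so it did not separate the classes. A match is a run of letters, not a shown binding site, and no test was made.

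Stretches upstream of 4 mitosis genes are shown because each holds the CHR letters, and all 4 rose at 7 days. They lie at chr7:135716430-135716579 (minus strand) for Mki67, chr4:118437344-118437423 (minus strand) for Cdc20, chr9:70421543-70421664 (minus strand) for Ccnb2 and chr2:164769819-164769928 (plus strand) for Ube2c. Each reads 5′ to 3′ on the gene's strand, and capitals mark the CHR, CCAAT and E2F letters.
Mki67: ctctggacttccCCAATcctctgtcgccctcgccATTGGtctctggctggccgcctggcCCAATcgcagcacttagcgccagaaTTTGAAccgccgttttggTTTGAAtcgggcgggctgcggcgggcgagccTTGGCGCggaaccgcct
Cdc20: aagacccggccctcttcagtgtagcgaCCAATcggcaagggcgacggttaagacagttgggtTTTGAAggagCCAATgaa
Ccnb2: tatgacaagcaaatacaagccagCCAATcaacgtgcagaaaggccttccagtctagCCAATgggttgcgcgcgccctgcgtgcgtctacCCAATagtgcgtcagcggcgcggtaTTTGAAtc
Ube2c: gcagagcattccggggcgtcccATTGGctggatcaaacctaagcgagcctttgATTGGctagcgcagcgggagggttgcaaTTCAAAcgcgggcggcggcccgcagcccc
In Mki67 the CHR letters begin 116 and 98 bases before the start, downstream of CCAAT letters at 188, 166 and 141 bases. In the stretches shown the CHR begins 18 bases before the start in Cdc20, 29 bases before it in Ube2c, and at base 5 after it in Ccnb2. In all 4 stretches a CCAAT match lies upstream of the CHR.

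Stretches of 4 replication genes are shown because each holds E2F letters and lacks the CHR in its window. They lie at chr12:24708004-24708223 (plus strand) for Rrm2, chr7:102441585-102441694 (plus strand) for Rrm1, chr1:128359706-128359830 (minus strand) for Mcm6 and chr8:75109334-75109508 (plus strand) for Mcm5, with the same motifs in capitals.
Rrm2: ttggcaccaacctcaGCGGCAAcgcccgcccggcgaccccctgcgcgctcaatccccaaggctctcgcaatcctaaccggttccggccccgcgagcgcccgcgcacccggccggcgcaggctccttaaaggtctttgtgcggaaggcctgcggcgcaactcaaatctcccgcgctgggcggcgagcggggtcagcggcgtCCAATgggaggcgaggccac
Rrm1: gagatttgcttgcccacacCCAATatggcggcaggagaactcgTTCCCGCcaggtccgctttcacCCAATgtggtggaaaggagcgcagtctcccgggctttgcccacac
Mcm6: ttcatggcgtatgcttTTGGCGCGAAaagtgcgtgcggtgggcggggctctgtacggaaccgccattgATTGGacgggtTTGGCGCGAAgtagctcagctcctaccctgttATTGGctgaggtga
Mcm5: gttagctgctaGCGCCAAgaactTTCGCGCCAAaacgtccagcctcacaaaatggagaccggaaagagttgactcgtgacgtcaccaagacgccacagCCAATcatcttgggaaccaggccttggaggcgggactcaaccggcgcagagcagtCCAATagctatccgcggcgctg
In Mcm6 overlapping E2F matches on opposite strands form a pair of blocks, beginning 109 and 46 bases before the start. Mcm5 has 3 matches between 164 and 149 bases before the start. Rrm1 has a match 67 bases before the start and Rrm2 a match 235 bases before it. Tyms, Birc5, Melk and Nusap1, which also rose, held none of the letters searched in their windows.

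Between 45.0% and 84.8% of gene spots were well above background in the aorta channel, and 33 to 46 of the 46 members per array. Saline replicate 5 at 7 days and saline replicates 2 and 4 at 28 days stood apart: the spread of their log2 ratios over all probes (median absolute deviation) was 0.0573 to 0.134, against 0.214 to 0.569 on the other 32 arrays. Without background subtraction these 3 arrays had spreads of 0.326 to 0.374, inside the range of the others. Counts of members called in comparisons that use them are given with and without them. The mean ratio of 8 smooth muscle markers was between 1.56 and 3.76 on saline arrays at 7 days, so the labelled vessel wall was represented. Fat was represented too, with 4.37 to 5.59 for brown adipocyte markers and 4.76 to 5.88 for white and common adipocyte markers. Adrenal and chromaffin markers ran from 0.88 to 1.9 on these arrays. At 7 days of Ang II all 8 macrophage markers tested were higher (median log2 difference 1.81), 5 of 8 fibroblast markers were higher, and 0 of 8 T and B cell markers passed the test. Over all genes tested 14.5% were higher and 12.6% lower. The neutrophil marker Mpo (0.9, adjusted p = 0.013 in the limma fit) and the smooth muscle marker Smtn (0.95, adjusted p = 0.0161) were also higher. Lower at 7 days were 3 of 7 adrenal and chromaffin markers (Chga, Th and Dbh, list median -0.38), 2 of 7 brown adipocyte markers (Cox7a1 and Elovl3, list median -0.9) and 1 of 8 white and common adipocyte markers (Lpl, list median -0.12). The lower share of the white and common adipocyte list was near that of all genes. At 7 days the mean ratio of the macrophage markers ran from -0.45 to 0.44 on saline, 1.68 to 2.25 on Ang II and 1.79 to 2.76 on dissected arrays. At 14 days it ran from 0.22 to 1.21 with saline and from 1.24 to 1.49 with Ang II. At 28 days the groups overlapped, from -0.3 to 0.92 with saline and from 0.76 to 1.93 with Ang II. The part of these cells in the results below was not tested.

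**Figure D1:**
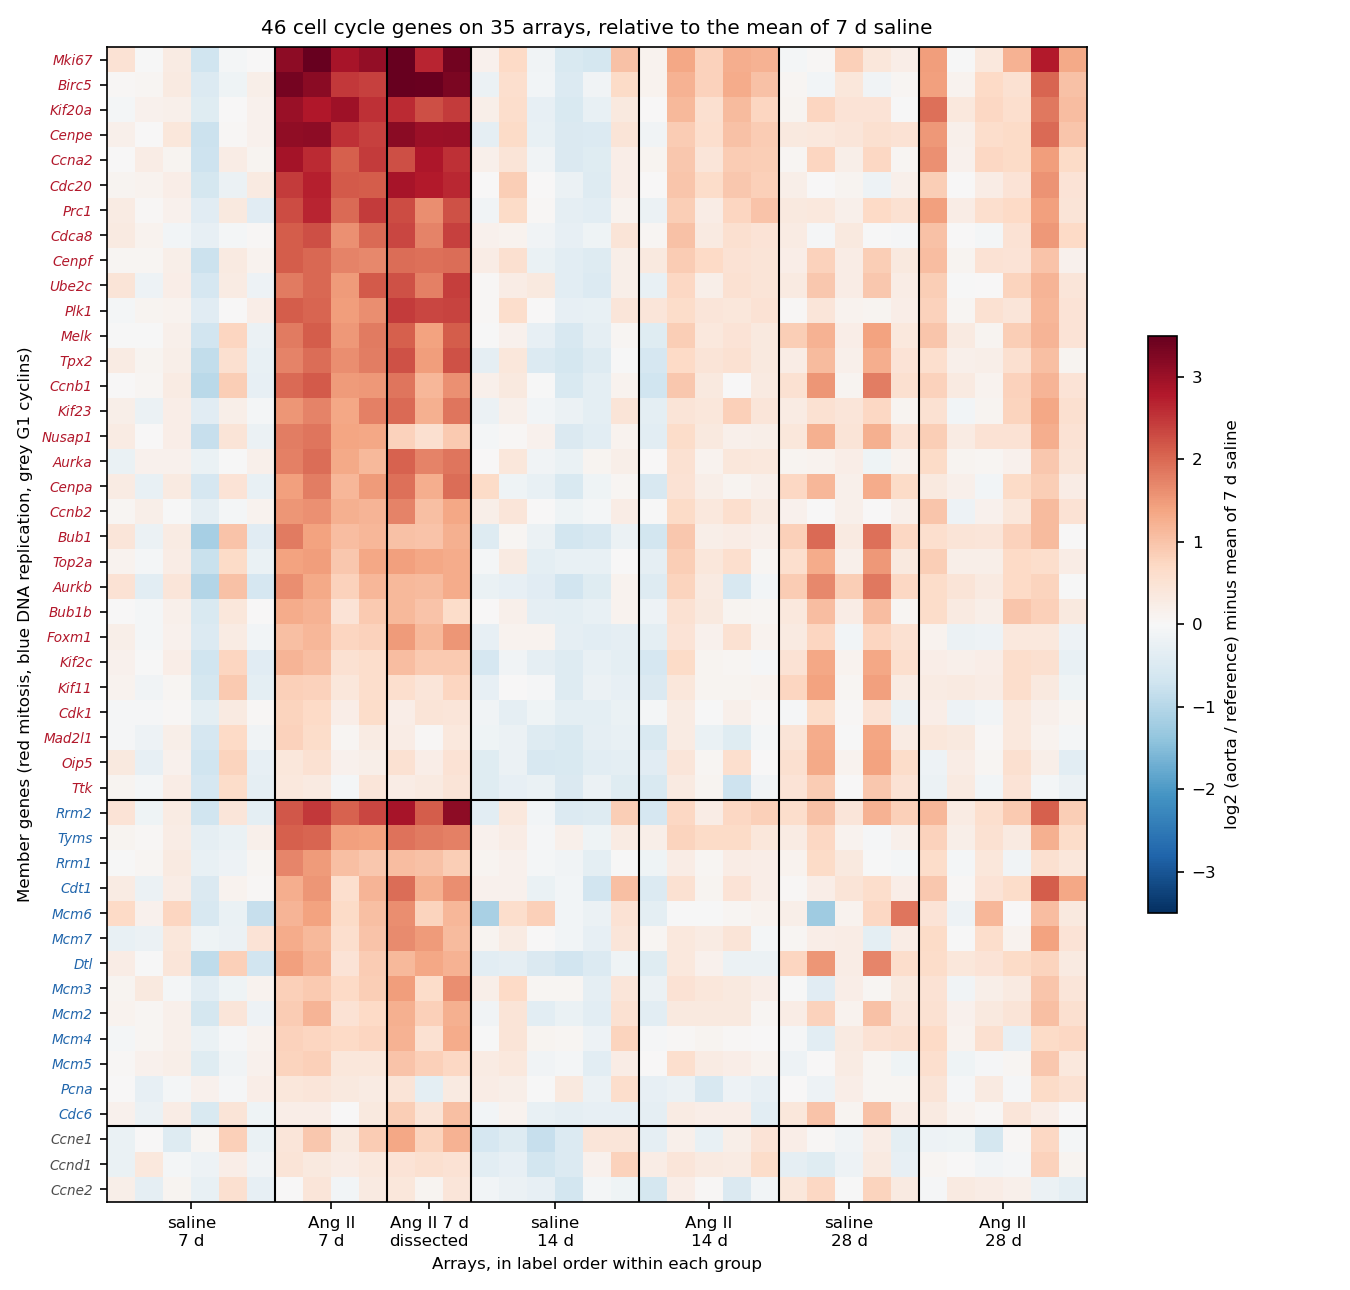
Each row is a member gene and each column an array, coloured by the log2 aorta/reference ratio minus the gene's mean over the 6 saline arrays at 7 days (red higher, blue lower). The 4 Ang II and 3 dissected arrays at 7 days form the red block, while saline replicates 2 and 4 at 28 days are raised mainly in rows such as Bub1 and Aurkb.

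Ang II for 7 days against saline for 7 days addresses the early response of the sampled aortic tissue. Most genes of mitosis and of replication rose: 27 of 30 mitosis genes and 11 of 13 replication genes were higher, with median log2 differences of 1.6 and 1. Whether the classes differed from each other was not tested. Cyclins D1, E1 and E2, which act in G1, did not pass the test, with a median of 0.36. In all, 38 of 46 members were higher and 0 were lower, where 14.5% of all genes tested were higher and 12.6% lower (limma, Benjamini-Hochberg adjusted p under 0.05 over all genes). The median was 1.3 over members and -0.0033 over all genes. Ang II and saline arrays did not overlap for 33 members, 23 of mitosis and 10 of replication, where 12.3% of all genes were higher and 8.31% lower without overlap. Leaving out 1 array at a time gave 34 to 39 members higher, and leaving out the 3 arrays of narrow spread gave 40. Centring each array on its median in place of loess gave 22 higher, and scaling the arrays to a common spread gave 0; that step by construction enlarges the values of the narrow arrays most. Within the first scan day 35 members were higher, and within the second, which holds a single Ang II array, 14.

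The proliferation antigen Ki-67, encoded by Mki67 and carried by cycling cells, changed most. Saline arrays at 7 days measured -5.28 at the lowest, -4.58 at the median and -4.08 at the highest. The 4 Ang II arrays measured -1.44, -1.09, -1.68 and -1.49, and the 3 dissected arrays -0.96, -1.9 and -1.19. Every Ang II array, dissected or not, lay above every saline array. The difference was 3.16 (SE 0.37, adjusted p = 4.43e-07), a fold of 8.91, in the limma fit. A dimmer Mki67 probe gave 2.24.

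Birc5 encodes survivin, which with borealin (Cdca8), Aurora B and INCENP forms the chromosomal passenger complex. For Birc5, saline arrays ranged from -4.41 to -3.63 (median -3.88) and Ang II arrays measured -0.6, -0.78, -1.46 and -1.54. The groups were far apart, and replicates 1 and 2 were the higher Ang II arrays. The difference was 2.84 (SE 0.279, adjusted p = 2.4e-08), a fold of 7.17. Cdca8 rose by 1.99 (SE 0.224, adjusted p = 2.06e-07) on the probe used, whereas its other tested probe gave 0.6. Aurkb was not well above background on any of the 6 saline arrays and was on all 4 Ang II arrays, so its fold is approximate. It was 2.3-fold with saline signals raised to at least the lowest signal well above background on each array. The limma difference was 1.23 (SE 0.3, adjusted p = 0.00327).

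Kinesins that move chromosomes and build the midzone were among the steepest. Kif20a, a kinesin needed for cytokinesis, measured -4.57 at the lowest, -4.06 at the median and -3.95 at the highest with saline and -1.12, -1.33, -1.17 and -1.58 with Ang II. Its Ang II arrays were also close to each other (SD 0.209, n = 4), and the difference was 2.84 (SE 0.26, adjusted p = 8.82e-09). Cenpe, the kinetochore kinesin, measured -5.42 at the lowest, -4.58 at the median and -4.28 at the highest with saline and -1.56, -1.53, -2.12 and -2.27 with Ang II, without overlap. Its difference was 2.8 (SE 0.279, adjusted p = 2.69e-08) on the brighter probe and 0.68 on the other. Kif23, the centralspindlin kinesin, rose by 1.61 (SE 0.225, adjusted p = 6.83e-06), and Prc1, which bundles the midzone microtubules, by 2.35 (SE 0.242, adjusted p = 4.54e-08). Kif2c, which shortens microtubules at centromeres, rose by 0.86 with overlapping groups. Kif11, the spindle-pole motor Eg5, passed at 0.67 (SE 0.239, adjusted p = 0.0378), but its other probe gave -0.029 and the call was lost in 15 of 25 alternatives.

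Mitotic cyclins and kinases rose too. Ccna2, cyclin A2, measured -4.67 at the lowest, -3.83 at the median and -3.67 at the highest on saline arrays and -1.02, -1.32, -1.85 and -1.48 on Ang II arrays. No Ang II array came near the saline range, and the difference was 2.51 (SE 0.252, adjusted p = 2.79e-08), a fold of 5.72. Ccnb1 rose by 1.78 (SE 0.315, adjusted p = 0.00014) and Ccnb2 by 1.39 (SE 0.181, adjusted p = 2.31e-06), both B-type cyclins. Cdk1, the kinase they activate, measured -2.97 to -2.33 with saline and -1.85, -1.95, -2.4 and -2 with Ang II. The lowest Cdk1 value with Ang II fell within the saline range, and the difference was 0.59 (SE 0.141, adjusted p = 0.00294), a fold of 1.5. Plk1, Polo-like kinase 1, rose by 1.81 (SE 0.173, adjusted p = 1.42e-08), and Aurka, the spindle-pole kinase, by 1.55 (SE 0.164, adjusted p = 7.62e-08). Melk, another mitotic kinase, rose by 1.81, and the transcription factor Foxm1 by 0.95 (SE 0.184, adjusted p = 0.000401).

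Cdc20 and Ube2c, which act with the anaphase-promoting complex, rose, while members of the spindle checkpoint were called in part. Cdc20, which activates the anaphase-promoting complex, ranged over -4.26 to -3.33 with saline and measured -1.2, -0.93, -1.5 and -1.53 with Ang II, a difference of 2.37 (SE 0.242, adjusted p = 3.77e-08). Ube2c, the ubiquitin-conjugating enzyme of that complex, rose by 1.87 (SE 0.241, adjusted p = 1.95e-06). The checkpoint kinase Bub1 was not well above background on any saline array at 7 days, so its fold is approximate. It was 2.49-fold with saline signals raised to at least the lowest signal well above background on each array. The limma difference was 1.36 (SE 0.328, adjusted p = 0.00295). Its relative Bub1b rose by 0.98. Mad2l1, the checkpoint inhibitor of Cdc20, had 0.45 (SE 0.227, adjusted p = 0.136) and did not pass. Nor did Ttk, the Mps1 kinase (0.26, adjusted p = 0.357), or Oip5, which helps load CENP-A (0.33, adjusted p = 0.316).

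The remaining mitosis genes were Cenpf, Cenpa, Tpx2, Nusap1 and Top2a. Cenpf, a kinetochore protein, rose by 1.89 (SE 0.212, adjusted p = 2.06e-07) on the probe used and 0.3 on the other. Cenpa, the centromeric histone, rose by 1.47 (SE 0.245, adjusted p = 7.02e-05). The spindle proteins Tpx2 and Nusap1 rose by 1.78 and 1.6, and topoisomerase Top2a by 1.3 (SE 0.247, adjusted p = 0.000319). Of the 13 members with several tested probes, all probes had the same sign at 7 days in 12, and the probes differed by more than 1 log2 unit in 3 (Cenpe, Cenpf and Cdca8).

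**Figure D2:**
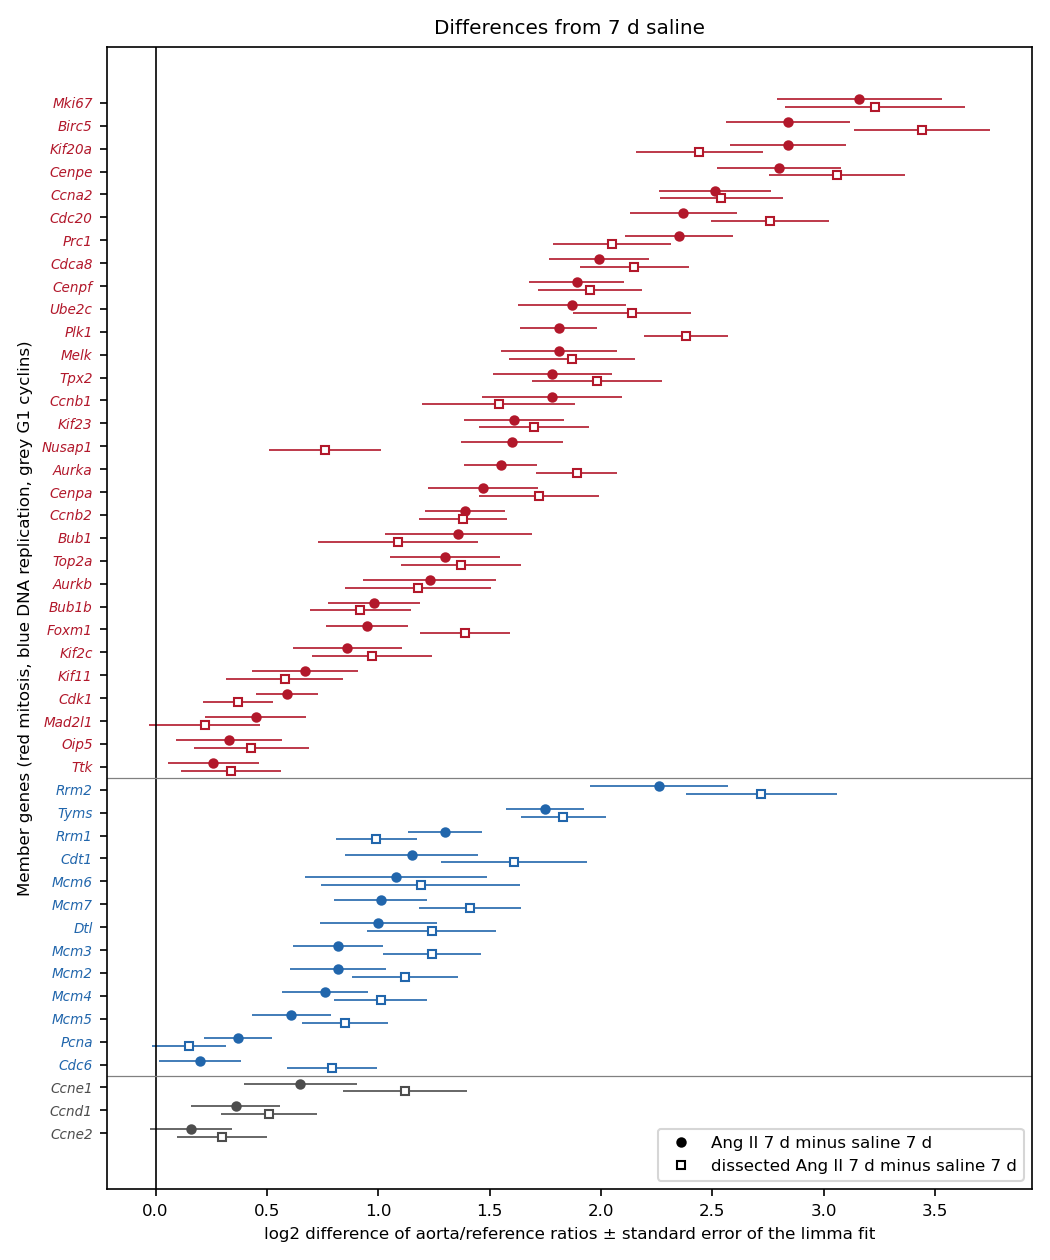
Log2 differences from 7-day saline with standard errors of the limma fit, for 4 Ang II arrays (filled circles) and 3 dissected Ang II arrays (open squares) against the same 6 saline arrays. Mki67 leads the mitosis genes at 3.16 and Rrm2 the replication genes at 2.26, whereas the G1 cyclins lie between 0.16 and 0.65 without dissection.

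Genes of nucleotide supply come first among the replication genes. Rrm2, the small subunit of ribonucleotide reductase, measured -4.2 at the lowest, -3.44 at the median and -3.04 at the highest with saline and -1.33, -1.03, -1.45 and -1.17 with Ang II. The groups were separated by more than a log2 unit, and the difference was 2.26 (SE 0.31, adjusted p = 5.03e-06), a fold of 4.8. Its partner Rrm1, the large subunit, measured -3.19 at the lowest, -2.91 at the median and -2.62 at the highest with saline and -1.21, -1.44, -1.88 and -2 with Ang II, a difference of 1.3 (SE 0.166, adjusted p = 1.86e-06). Tyms, thymidylate synthase, ranged over -3.21 to -2.65 with saline. With Ang II it split into a high pair and a low pair, at -0.8, -0.85, -1.47 and -1.49, all above saline. The Tyms difference was 1.75 (SE 0.175, adjusted p = 2.79e-08), a fold of 3.36.

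Licensing genes place the MCM helicase on origins. Cdt1, a licensing factor, measured -4.84 at the lowest, -4.25 at the median and -4.04 at the highest with saline and -3.05, -2.8, -3.75 and -3.14 with Ang II. Ang II replicate 3 was the lowest of its group but still above saline, and the difference was 1.15 (SE 0.299, adjusted p = 0.00533). Dtl, which directs the destruction of Cdt1, rose by 1 (SE 0.264, adjusted p = 0.0058), although it was well above background on only 1 saline array. The 6 MCM genes all rose: Mcm7 by 1.01, Mcm3 and Mcm2 by 0.82 each, Mcm4 by 0.76 and Mcm5 by 0.61. The sixth, Mcm6, spread widely with saline, -3.41 at the lowest, -2.66 at the median and -1.85 at the highest, and measured -1.43, -1.22, -1.94 and -1.56 with Ang II. Its groups overlapped, and the call, at 1.08 (SE 0.408, adjusted p = 0.0485), was lost in 16 of 26 alternatives.

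Pcna, the sliding clamp, measured -2.62 to -2.11 with saline and -1.93, -1.9, -1.98 and -2.05 with Ang II. The arrays did not overlap, yet the difference of 0.37 (SE 0.153, adjusted p = 0.0707) did not pass. Cdc6, a licensing factor like Cdt1, had 0.2 (SE 0.184, adjusted p = 0.438). Among G1 cyclins, Ccnd1 measured -1.35 at the lowest, -1.22 at the median and -0.74 at the highest with saline and -0.65, -0.77, -0.86 and -0.74 with Ang II, a difference of 0.36 (SE 0.199, adjusted p = 0.181). Ccne1 had 0.65 (SE 0.253, adjusted p = 0.0553) with 1 saline array, replicate 5, inside the Ang II range, and Ccne2 had 0.16 (SE 0.185, adjusted p = 0.571). A dimmer Ccne1 probe gave 0.075.

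Wider lists, drawn from textbook membership and free of the 46 members, placed the same comparison in its pathways. The counts of each list are to be read against the 14.5% of all genes called higher and the 12.6% called lower. In the kinetochore and centromere list 23 of 31 genes tested were higher and 1 was lower (median 0.98). The leading rises were Nuf2, at 2.29 (adjusted p = 2.92e-07), Kif4, at 1.95 (adjusted p = 6.7e-07), and Sgo1, at 1.92 (adjusted p = 4.78e-07); Zwint was lower at -2.02 (adjusted p = 0.0185). Of 16 condensin and cohesin genes 6 were higher and 2 lower (median 0.36), the lower share being near that of all genes. The condensin subunits Ncapg and Smc4 rose by 1.92 and 1.47 and the cohesion regulator Cdca5 by 1.89, while Pttg1, which encodes securin, fell by 0.68 and the cohesin subunit Stag2 by 0.56.

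At the replication fork 14 of 24 genes were higher and 0 lower (median 0.63), led by the methylation-maintenance factor Uhrf1, at 1.82 (adjusted p = 0.000101), thymidine kinase Tk1, at 1.7 (adjusted p = 2.95e-07), and DNA ligase Lig1, at 1.2 (adjusted p = 6.43e-05). Of 18 origin licensing and firing genes 6 were higher and 3 lower (median 0.14), where 14.5% of all genes were higher and 12.6% lower. The chromatin assembly genes Chaf1b and Chaf1a rose by 1.39 and 0.96 and Mcm10 by 0.77, whereas the origin recognition genes Orc3, Orc5 and Orc4 fell by 0.5, 0.4 and 0.39.

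Among regulators calls went both ways, in shares to be read against the 14.5% of all genes called higher and 12.6% called lower. Of 16 E2F, MuvB and Myb genes 3 were higher and 2 lower (median 0.075). E2f7, at 1.4 (adjusted p = 0.000113), E2f1, at 0.9 (adjusted p = 1.5e-05), and Mybl2, which encodes B-Myb, at 0.65 (adjusted p = 0.00541), rose, while the MuvB subunit Lin52 fell by 1.1 and E2f6 by 0.51. Of 14 CDK inhibitors and pocket proteins 2 were higher and 2 lower (median 0.065). Cdkn3, a CDK phosphatase, rose by 2.39 and the pocket protein Rbl1 by 0.5, and the pocket proteins Rb1 and Rbl2 fell by 0.85 and 0.67. A list of 12 further cyclins, CDKs and regulators of CDK activity had 7 higher and 0 lower (median 0.55). These were the CDK-binding proteins Cks2 and Cks1b, at 2.29 and 1.55, the CDK-activating phosphatase Cdc25b, at 1.2, the CDK-inhibiting kinase Pkmyt1, at 0.66, cyclin D3 (Ccnd3), at 0.5, and the G1 kinases Cdk6 and Cdk4, at 0.69 and 0.6.

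Dissected aortas were compared with the same 6 saline arrays, so this comparison shares its controls with the one above. Again 38 of 46 members were higher and 0 lower, where 18.9% of all genes tested were higher and 17.6% lower. By class these were 25 of 30 mitosis genes (median 1.71), 12 of 13 replication genes (median 1.19) and 1 of 3 G1 cyclins. The arrays did not overlap for 37 members, where 17.2% of all genes were higher and 16.3% lower without overlap. All 3 dissected arrays were scanned on the second day, and within that day 37 members were higher. Without the narrow saline arrays 42 members were higher. Scaling to a common spread gave 1 higher. Centring each array on its median gave 19 higher, and that centring moved the median of all genes to -0.36.

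Birc5 had the largest difference from saline in dissected aortas. Its 3 arrays measured -0.37, -0.48 and -0.65, all above the saline maximum of -3.63, and the difference was 3.44 (SE 0.306, adjusted p = 3.2e-09). Rrm2 measured -0.61, -1.38 and -0.37, a difference of 2.72 (SE 0.339, adjusted p = 3.56e-07). Replicate 2 was the lowest dissected array for Rrm2, and for 33 of 46 members. Cdc6, at -0.79, -1.21 and -0.62, differed from saline by 0.79 (SE 0.202, adjusted p = 0.00259), and Ccne1, at 0.16, -0.42 and 0.014, by 1.12 (SE 0.277, adjusted p = 0.00192). Dimmer probes gave 0.53 for Cdc6 and 0.46 for Ccne1. Cdk1 and Kif11 had 0.37 (adjusted p = 0.0597) and 0.58 (adjusted p = 0.08) here and did not pass.

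Set directly against the 4 other Ang II arrays at 7 days, the dissected arrays differed in 1 of 46 members, where 4.97% of all genes tested were lower and 3.08% higher. That member was Nusap1, a spindle-assembly protein. It measured -1.89, -1.82, -2.3 and -2.33 in aortas not labelled dissected and -2.88, -3.13 and -2.77 in dissected ones, against a saline range of -4.49 to -3.22. The dissected arrays lay below the other Ang II arrays and above the saline arrays, overlapping neither. The difference was -0.85 (SE 0.27, adjusted p = 0.0478), and the call was lost without any single array of either group but Ang II replicate 4, and with scan day as a block (-0.69, adjusted p = 0.16). Plk1, Cdc6 and Ccnd1 had no overlap in the other direction, where 11.9% of all genes were higher and 15.1% lower without overlap. Plk1 and Cdc6 were at higher values by 0.57 and 0.58 with adjusted p of 0.0841 and 0.096. Against saline, Nusap1 in dissected aortas was higher by 0.76 (SE 0.25, adjusted p = 0.0175), but -0.0093 with each array centred on its median. Over the 46 members the median difference between dissected and other Ang II arrays was 0.11. Of 6 neutrophil markers 1, Csf3r, was higher in dissected than in other Ang II aortas (median of the list 1.63), and 2 of 8 fibroblast markers were lower (median -1.26). Among adrenal and chromaffin markers Chga alone passed, higher by 3.08 (adjusted p = 0.0357 in the limma fit). The part of these cells in the Nusap1 difference was not tested.

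**Figure D3:**
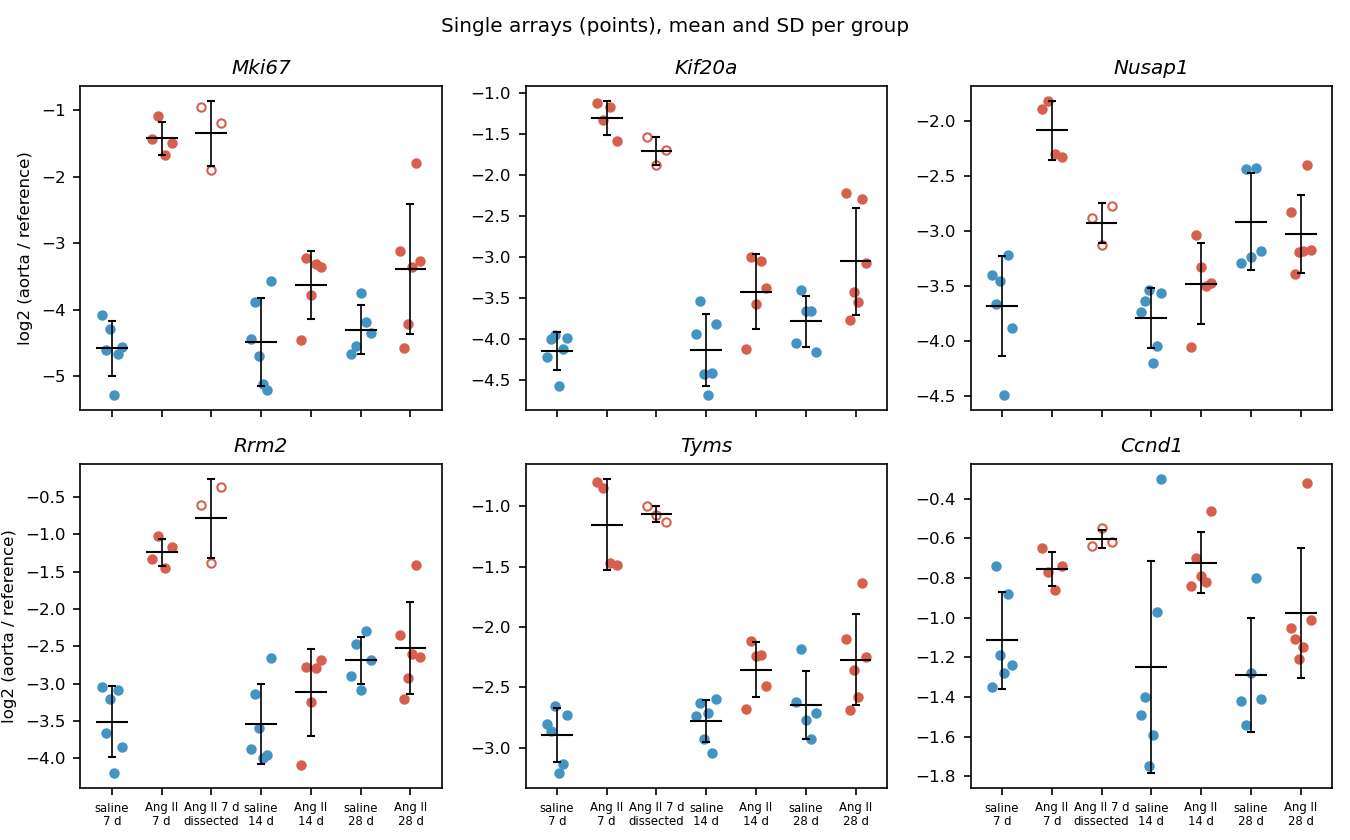
Points are single arrays, lines are group means with SD, and the vertical axis is the log2 aorta/reference ratio. Ang II arrays at 7 days stand clear of saline for Mki67, Kif20a, Rrm2 and Tyms, and dissected arrays lie below the other 7-day Ang II arrays for Nusap1. For Ccnd1, saline and undissected Ang II arrays overlap at each time, and dissected arrays lie above both 7-day groups.

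Ang II for 14 days against saline for 14 days showed no called member. Higher and lower calls were both 0 of 46, where 1.12% and 1.27% of all genes tested were higher and lower. At an unadjusted p under 0.05 there were 17 of 46 members, against 3438 of all 18689 genes tested. At the adjusted threshold 0 members were called without the 3 narrow arrays. All 30 mitosis genes had positive differences (median 0.39), as did 10 of 13 replication genes (median 0.16), against a median of 0.0017 over all genes. Cdk1 alone had groups that did not overlap, at -2.72, -2.35, -2.65, -2.46 and -2.59 against -2.98 to -2.77, where 1.46% of all genes were higher and 1.82% lower without overlap, and its difference was 0.33 (SE 0.133, adjusted p = 0.17). Kidney tubule markers were lower in 4 of 8 at 14 days (median -1.21), and their part was not tested.

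Mki67 measured -4.45, -3.22, -3.77, -3.31 and -3.35 with Ang II at 14 days and -5.2 at the lowest, -4.57 at the median and -3.56 at the highest with saline. Replicates 1 and 3 lay inside the saline range and the other 3 above it, a difference of 0.86 (SE 0.347, adjusted p = 0.173). The dimmer Mki67 probe gave 0.47. Replicate 1 was the lowest of its group for 40 of 46 members, and without it 2 members were called higher. Birc5 (0.83, adjusted p = 0.0805), Cenpe (0.72) and Kif20a (0.71) had the next largest differences. Tyms measured -2.68, -2.12, -2.24, -2.23 and -2.49 against -3.04 to -2.6, a difference of 0.42 (SE 0.164, adjusted p = 0.157), with replicate 1 again inside the saline range. Pcna went the other way, at -2.61, -2.54, -2.88, -2.5 and -2.61 against -2.53 at the lowest, -2.1 at the median and -1.72 at the highest. Its difference of -0.49 (SE 0.143, adjusted p = 0.0564) did not pass. The deposited table gave 1 member called lower, and array weights gave 2 called higher and 1 lower. Leaving out saline replicate 5 gave 1 member called lower and leaving out saline replicate 6 gave 2 called higher.

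At 28 days 0 of 46 members were called in either direction, where 0.840% of all genes tested were higher and 0.0589% lower. An unadjusted p under 0.05 was found in 22 members, against 2829 of all 18689 genes tested. Without the 3 narrow arrays 0 were called. The arrays overlapped in every member, where 1.04% of all genes were higher and 0.316% lower without overlap. A split by brightness, chosen after the values were seen, divided the signs. Of the 32 members well above background on all 35 arrays 25 had positive differences (median 0.3), and of the other 14 none did (0 of 14, median -0.46). In all 14 of those, saline replicates 2 and 4, the arrays of narrow spread, were the highest of the 5 saline arrays, compared with 11 of the 32 brighter members. Over all members the median was 0.07, it was 0.22 without the 3 narrow arrays, and it was 0.41 without background subtraction, where 1 member was called higher. Other settings called more members higher, 36 with scaling to a common spread (median 3.89), 9 with the deposited table (median 0.67), 3 with the aorta channel alone and 2 within the second scan day. Leaving out saline replicate 3 gave 1 member called lower, and leaving out Ang II replicate 2 gave 1 called higher.

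Birc5 and Mki67 had the largest positive differences at 28 days on the probes used. Birc5 measured -3.81 at the lowest, -3.08 at the median and -1.9 at the highest with Ang II and -3.88, -4.02, -3.53, -4.06 and -3.88 with saline, a difference of 0.91 (SE 0.262, adjusted p = 0.0913). Mki67 measured -3.11, -4.58, -4.21, -3.35, -1.8 and -3.26 with Ang II, in replicate order, and -4.66, -4.55, -3.74, -4.18 and -4.35 with saline. Replicate 5 was the highest and still below the 4 undissected Ang II arrays at 7 days, and the difference was 0.91 (SE 0.347, adjusted p = 0.201). The dimmer Mki67 probe gave 0.16. Replicate 5 was the highest Ang II array for 29 of 46 members and replicate 2 the lowest for 24. Cdt1, the replication gene with the largest difference at 28 days, ranged over -4.29 to -2.22 with Ang II and -4.29 to -3.72 with saline (0.62, adjusted p = 0.289). Aurkb and Oip5, both dim, had -0.71 and -0.72, and Oip5 measured -1.59, -0.84, -2.03, -0.76 and -1.51 on the saline arrays, with replicates 2 and 4 highest. Macrophage markers were positive in 8 of 8 at 28 days, with 2 passing.

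**Figure D4:**
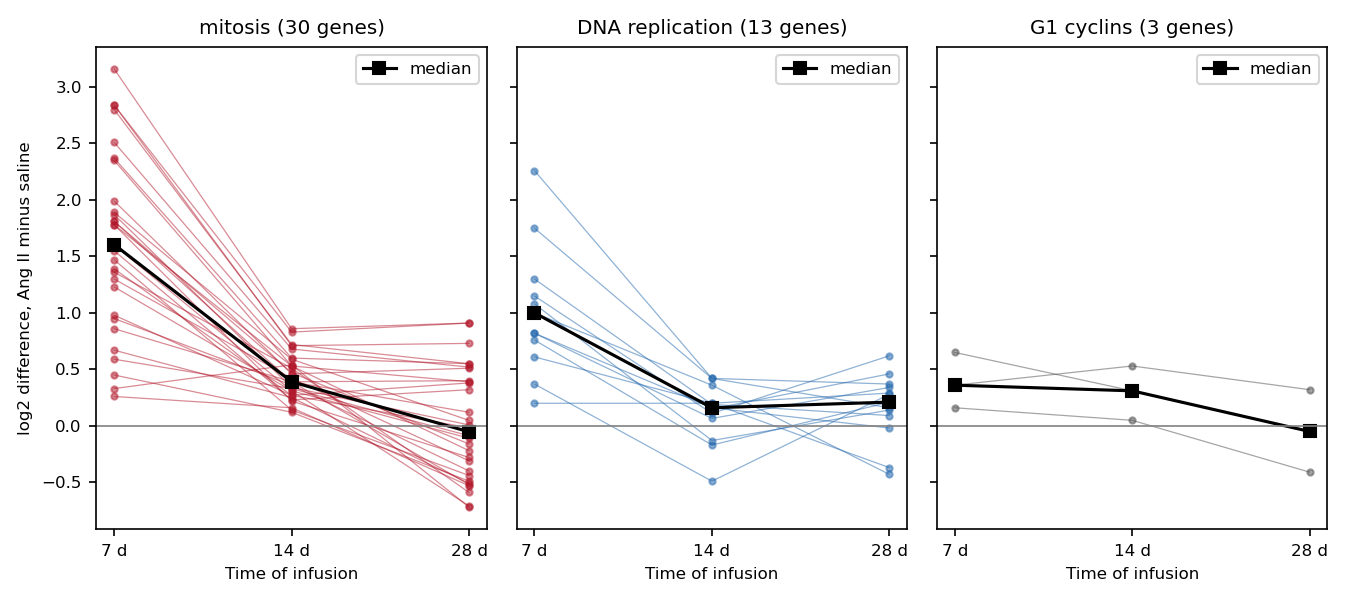
Each thin line is a member's log2 difference, Ang II minus saline (vertical axis), by day of infusion (7, 14 or 28), and black squares are class medians. The mitosis median goes from 1.6 to 0.39 and -0.053, and the replication median from 1 to 0.16 and 0.21; at 28 days the lines fan out to either side of 0.

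Whether the Ang II difference itself changed with time was tested as an interaction. These tests share the 7-day arrays with each other and with the comparisons above. The difference was lower at 14 than at 7 days in 20 of 46 members, where it was lower in 0.787% of all genes tested, and higher in 0, where it was higher in 0.246%. Of these 16 were mitosis genes and 4 replication genes (Rrm2, Tyms, Rrm1 and Pcna). In Pcna the difference went from 0.37 to -0.49, so it turned sign, though neither difference passed by itself. The Pcna interaction call was lost in 19 of 37 alternatives. Mki67 had the steepest change, -2.29 (SE 0.508, adjusted p = 0.0257), followed by Kif20a, -2.13 (SE 0.357, adjusted p = 0.00363), Cenpe, -2.08, and Birc5, -2.01. Rrm2 changed by -1.84 (SE 0.424, adjusted p = 0.0329) and Tyms by -1.32 (SE 0.24, adjusted p = 0.00732). Without the 3 narrow arrays 21 members were called. Median centring gave 6 and scaling to a common spread 0. Within the first scan day 0 members were called, and within the second 0. Fewer members were called without saline replicate 4 at 7 days (12), Ang II replicates 1 (11) or 2 (9) at 7 days or Ang II replicate 1 at 14 days (11), and 4 with slide as a block.

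The difference was lower at 28 than at 7 days in 29 members, 25 of mitosis and 4 of replication (Rrm2, Dtl, Tyms and Rrm1), where it was lower in 1.96% of all genes tested, and higher in 0, where it was higher in 0.658%. Among mitosis genes the called changes ran from -1.01 in Ccnb2 to -2.26 in Cenpe. Cenpf, with -1.84 (SE 0.291, adjusted p = 0.000681), and Plk1, with -1.42 (SE 0.237, adjusted p = 0.00129), had the smallest adjusted p. Nusap1 changed by -1.71 (SE 0.312, adjusted p = 0.00209). The replication calls were -2.1 in Rrm2, -1.43 in Dtl, -1.38 in Tyms and -1.2 in Rrm1, while the 6 MCM genes, Cdc6 and Cdt1 did not pass. Without the 3 narrow arrays 24 members were called, and 20 of the 29 were among the 32 brighter members. Without background subtraction 15 were called and with median centring 0. With the arrays scaled to a common spread 0 were called, and the sign turned in 26 of the 29. Within the first scan day 1 member was called and within the second 0, with fewer arrays in each.

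An interaction combines the change in Ang II aortas with that in saline aortas. Ang II at 28 days was not tested against Ang II at 7 days by itself. Saline differences from 7 to 28 days were positive in 45 of 46 members, with 0 called. Ccnb1 ranged over -4.85 to -3.06 with saline and -2.43 to -1.76 with Ang II at 7 days, and over -3.82 to -2.14 with saline and -3.8 to -2.74 with Ang II at 28 days. Its Ang II arrays at 28 days lay wholly below those at 7 days and overlapped saline. Plk1 ranged over -1.42 to -0.77 with Ang II at 7 days and -2.81 to -1.73 at 28 days, Prc1 over -1.58 to -0.91 and -3.32 to -2.13, and Tpx2 over -1.56 to -1.25 and -3.11 to -2.14. In these 3 genes as well no 28-day Ang II array reached the 7-day ones. These genes, and those of the next paragraph, were picked from members called in the interaction, which uses the same arrays. Their ranges are a description and add no support to the calls. Overlap between these Ang II groups was not counted over all genes.

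In other called members the 7-day and the 28-day Ang II arrays lay apart or overlapped. Aurka ranged over -2.02 to -1.21 and then -3.1 to -2.22, Top2a over -2.46 to -1.95 and -3.2 to -2.55, and Cdca8 over -1.3 to -0.64 and -2.96 to -1.39, without overlap. Bub1 ranged over -2.63 to -1.9 and -3.69 to -2.59, Kif2c over -1.65 to -1 and -2.44 to -1.57, and Dtl over -2.51 to -1.55 and -2.68 to -2.22, with overlap. Rrm2 also overlapped, at -1.45 to -1.03 against -3.21 to -1.41, whereas Tyms, at -1.49 to -0.8 against -2.69 to -1.64, did not. Saline means went from -3.71 at 7 days to -2.55 at 28 days in Bub1 and from -2.99 to -2.02 in Dtl. Those saline differences were not called, but they enter the interactions.

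Saline for 28 days against saline for 7 days shows the difference between control groups. No member was called, with 0 higher and 0 lower, where 0% of all genes tested passed in either direction. An unadjusted p under 0.05 was found in 22 members, against 2409 of all 18689 genes tested. The arrays overlapped in all 46 members, where 0.209% of all genes were higher and 0.380% lower without overlap. Differences were positive in 45 of 46 members, with a median of 0.43, against -0.05 over all genes. The median was 0.8 over the 14 dim members and 0.27 over the 32 brighter ones. It was 0.066 over all members without background subtraction and 0.32 without the 3 narrow arrays, where 0 were called. Leaving out saline replicate 5 at 7 days called 12 members higher, and leaving out saline replicate 3 at 28 days called 10. The share of all genes called in these settings is not given here. The mean over the 30 mitosis genes was -3.76 to -2.77 at 7 days, -3.58 to -2.91 at 14 days and -2.9 to -2.28 at 28 days with saline. With Ang II it was -1.82 to -1.33 at 7 days, -3.38 to -2.42 at 14 days and -2.99 to -2.08 at 28 days.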

How the data were processed

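Each of the 35 two-colour Agilent arrays gave, per the file headers, spot intensity and local background from Feature Extraction 9.5.3.1, a version also in the submitters' processing notes, and the scanner's log10 ratio, which was used to settle the scale of the series table. The authors' deposited series table holds log2 ratios, whose further normalization is not given in the sources used here and which served as an alternative. Here the intensity was corrected with normexp (offset 50) and loess-normalized within arrays. Control and outlier spots were left out. The brightest probe well above background on at least 3 arrays stood for a gene. The 7 group means were fitted with limma 3.58.1 (R 4.3.3, 28 residual degrees of freedom), with Benjamini-Hochberg adjustment over 18689 genes and a threshold of 0.05. Scripts were tested on simulated data. No dyes were swapped, so a dye effect common to all arrays cancels only between groups. The number of arrays limits the precision. The p-values set a difference against the spread between arrays within groups, in which mouse and technical variation cannot be told apart.

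Named genes were, per class, the 5 with the largest called difference at 7 days, all members called at 14 or 28 days, and all members called lower in a comparison; others illustrate roles and were chosen with values seen. The members and lists were chosen with earlier results of these data known. Alternatives changed background correction, normalization, channel, filter, probe rule, samples, weights, blocks, promoter window and single arrays. The setting without 3 arrays of narrow spread, and that with brighter members alone, were added after seeing the data.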

Additional observations from a re-analysis of the deposited data

Results flagged for a closer look

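Among 102 checks of a single array against the rest of its group, 5 stood out, and chance flags about 1 in 20 groups. Saline replicate 4 at 7 days was far below its group for Cenpe, at -5.42 against -4.67 to -4.28, and for Ccna2, at -4.67 against -3.93 to -3.67. It was the lowest saline array for 39 of 46 members. Saline replicate 5 at 7 days, an array of narrow spread, was high for the mean of the G1 cyclins, at -0.53 against -1.29 to -1.04. Ang II replicate 5 at 28 days was high for Ccnd1, at -0.32 against -1.21 to -1.01, and for the G1 cyclin mean, at -0.64 against -1.23 to -1.01.

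The Ang II difference (Ang II minus saline) was lower at 14 than at 7 days in 16 mitosis genes and 4 replication genes, and lower at 28 than at 7 days in 25 and 4, by interaction terms in limma. Among the 4 replication genes at 14 days, Pcna turned sign, from 0.37 to -0.49, though neither difference passed by itself. The change at 14 and then 28 days was -2.29 and -2.24 for Mki67, -2.13 and -2.11 for Kif20a, -2.08 and -2.26 for Cenpe, -2.01 and -1.93 for Birc5, and -1.84 and -1.99 for Ccna2. For Nusap1 it was -1.29 and -1.71. Among replication genes it was -1.84 and -2.1 for Rrm2, -1.32 and -1.38 for Tyms, and -1.11 and -1.2 for Rrm1.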

How the results depend on the processing

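Counts of members called kept to within 1.5 times their main value except as follows. Without background subtraction there were 1 at 28 days, 0 between dissected and other Ang II arrays and 15 for the change from 7 to 28 days. With median centring there were 22 at 7 days, 19 in dissected aortas against saline, 6 and 0 for the changes to 14 and 28 days, and 20 members without overlap at 7 days in place of 33. With scaling to a common spread there were 0 at 7 days, 36 at 28 days, 1 and 0 for dissected against saline and against Ang II, 0 and 0 for the changes to 14 and 28 days, and 1 between saline groups. The aorta channel alone gave 3 at 28 days, 3 for dissected against Ang II and 34 for the change to 14 days, and the deposited table gave 1 at 14 days, 9 at 28 days, 3 and 34. Array weights gave 3 at 14 days, 6 and 32. For dissected against Ang II there were 0 with no dim filter, with the mean of probes, and with slide or scan day as a block, and 2 without the 3 narrow arrays. Slide as a block gave 4 for the change to 14 days. Within the first scan day there were 0 and 1 for the changes to 14 and 28 days, and within the second 14 at 7 days, 2 at 28 days, and 0 for dissected against Ang II and for both changes. Leaving out 1 array gave 34 to 39 at 7 days, 0 to 2 at 14 days, 0 to 1 at 28 days, 35 to 39 and 0 to 1 for dissected against saline and Ang II, 9 to 24 and 24 to 34 for the changes to 14 and 28 days, and 0 to 12 between saline groups. The cause of these shifts was not tested.

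Nusap1 in dissected aortas against saline turned to -0.0093 with median centring. With scaling, the change from 7 to 28 days turned positive in 26 genes: Aurkb 0.02, Foxm1 0.46, Dtl 0.67, Bub1 0.79, Tpx2 1.16, Melk 1.41, Ccnb1 1.48, Top2a 1.48, Kif23 1.49, Rrm2 1.63, Nusap1 2.04, Ube2c 2.06, Cenpf 2.42, Tyms 2.56, Plk1 2.71, Rrm1 2.75, Prc1 2.85, Ccna2 3.04, Cdca8 3.09, Kif20a 3.42, Ccnb2 3.52, Aurka 3.74, Cdc20 4.02, Cenpe 4.29, Birc5 4.43 and Mki67 4.6. The replicate block gave 38 at 7 days, 0 at 14 and 28 days, 39 and 1 for dissected against saline and Ang II, 20 and 26 for the changes and 0 between saline groups. Samples were not treated as paired by replicate number. Of 14 correlations of same-numbered deviations 6 were above 0.1, from -0.4 to 0.59, and at 14 days they ran from 0.041 to 0.59. Differently numbered arrays were not correlated for comparison, so pairing was not tested. In the 200-base promoter window the CHR counts were 19 and 2 for mitosis and replication genes and the E2F counts 3 and 8.

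Signal over background limits the 14 members that were not well above it on every array.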
